A study of Mus musculus with 52 samples.

Results

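The 8 genes described here encode histone H3.3 and the proteins that carry it to chromatin. H3f3a and H3f3b encode H3.3 itself, Hira, Ubn1 and Ubn2 encode subunits of the HIRA chaperone complex, Asf1a encodes a donor of histones to chaperones, and Daxx and Atrx encode the partners of a second H3.3 deposition pathway. They were chosen by name and found among 24402 gene intervals in mm10 coordinates, where each of the 8 matched 1 interval. The transcription start site (TSS) was the 5′ end of that interval. Enhancers were taken from a table of 8794 mouse embryonic stem cell (mESC) enhancers and a table of 16576 epiblast-like cell (EpiLC) enhancers. Those with their centre within 100 kb of one of the 8 TSSs were kept, which gave 5 mESC and 25 EpiLC enhancers. An enhancer centred within 1 kb of any TSS of the gene table is called promoter-centred, and the others are called distal.

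Most cells of an animal package newly replicated DNA with canonical H3, whose genes are active in S phase. H3.3 is made throughout the cell cycle and replaces H3 outside replication. The HIRA complex, in which UBN1 or UBN2 binds the H3.3 dimer, deposits the variant at active genes and regulatory regions, whereas DAXX with the remodeller ATRX deposits it at telomeres, pericentric repeats and silenced retroelements. ASF1A binds H3–H4 dimers and hands them to HIRA or to the replication-coupled chaperone CAF-1. In pluripotent cells H3.3 is found at promoters and enhancers, where lysine 27 of H3 can be acetylated, and at Polycomb targets, where it can be methylated.

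The study mapped chromatin in 52 immunoprecipitation or input libraries, 43 from mESCs and 9 from EpiLCs harvested at 48 hours. All cells had a C57BL6/129Sv background, and the mESCs grew without feeders in LIF with inhibitors of GSK3 and MEK1. The libraries were labelled ABE for the control line (14 libraries), cK27R for clones in which canonical H3 alone is mutated at K27 (12), pK27R for clones in which all H3 is (18) and SUZ12KO for cells without a core Polycomb subunit (4). In the 6 libraries made with an antibody to H3.3, the labels name a wild-type ABE line and an H3.3 knockout (H3-3KO, 1 library). They also name that knockout given back wild-type H3.3 (pK27WT, 2) or the K27R mutant (pK27R, included above). The label pK27R thus has 2 descriptions, and whether both are of the same clones cannot be told here. The cK27R, pK27R and pK27WT lines were 2 clones each, SUZ12KO and H3-3KO carried no clone number, and 1 EpiLC input carried no genotype. The tables analysed here hold 0 columns of values per library, so depth is unknown, and no mutant is compared with a control. What follows is where the enhancer sets lie around these genes. The mESC set and the EpiLC set were defined by different earlier publications, so a difference in definition and a difference between cell types cannot be told apart. All values are counts or distances in fixed region lists, with no replicates and no test.

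The residue mutated in the study is encoded at both H3.3 loci, and the codon is shown for each because the genes differ in DNA sequence and not in protein. H3f3a and H3f3b each have a coding sequence of 408 bases without the stop codon, or 135 codons after the start codon. They differed at 95 bases in 83 codons, with 81 of these bases at codon position 3, which left 76.7% of bases identical and 0 residues different. Against 12 canonical H3 genes whose coding sequence has the same length, the H3.3 protein differed in 4 to 5 residues, at positions 31, 87, 89 and 90 and, in those with 5, also 96, counted without the first methionine. Lysine 27 is AAG in H3f3a (chr1:180811843-180811845, minus strand) and AAA in H3f3b (chr11:116023926-116023928, minus strand). The sequences below run 5′ to 3′ along the coding strand, from chr1:180811828-180811860 and chr11:116023911-116023943, with codon 27 in capitals.
H3f3a codon 27: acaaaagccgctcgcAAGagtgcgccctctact
H3f3b codon 27: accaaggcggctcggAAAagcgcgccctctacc

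The sequence upstream of the TSS is shown for 4 members because the genes differ in whether an enhancer interval covers it. Ubn1 and Asf1a have an EpiLC enhancer over their TSS, while H3f3a and Ubn2 have none over theirs. Capitals mark matches, on either strand, to the CCAAT box (CCAAT), the cyclic AMP response element (TGACGTCA), the E-box (CACGTG), the GC box (GGGCGG) and the core of the NRF1 site (GCATGCGC). Bases within annotated exons of any gene were left out. The windows were Ubn1 at chr16:5049864-5050056 (plus strand), Asf1a at chr10:53596711-53596756 (plus), H3f3a at chr1:180813633-180813775 (minus) and Ubn2 at chr6:38433675-38433924 (plus).
Ubn1 upstream: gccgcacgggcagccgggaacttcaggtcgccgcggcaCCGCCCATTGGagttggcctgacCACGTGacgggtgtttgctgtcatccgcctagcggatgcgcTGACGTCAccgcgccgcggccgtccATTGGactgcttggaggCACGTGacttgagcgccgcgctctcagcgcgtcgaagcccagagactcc
Asf1a upstream: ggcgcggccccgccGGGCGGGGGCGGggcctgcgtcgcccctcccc
H3f3a upstream: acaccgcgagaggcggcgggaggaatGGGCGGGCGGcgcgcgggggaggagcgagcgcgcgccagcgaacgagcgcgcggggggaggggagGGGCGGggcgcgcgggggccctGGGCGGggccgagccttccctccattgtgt
Ubn2 upstream: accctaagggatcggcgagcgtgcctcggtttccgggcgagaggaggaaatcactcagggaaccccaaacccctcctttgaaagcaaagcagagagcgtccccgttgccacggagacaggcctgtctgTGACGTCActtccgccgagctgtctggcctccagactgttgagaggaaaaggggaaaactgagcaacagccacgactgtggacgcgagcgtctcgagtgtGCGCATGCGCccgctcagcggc

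In the Ubn2 sequence, the NRF1 core matches on both strands at overlapping positions, and the first GC boxes of the H3f3a sequence overlap. The paralogs Ubn1 and Ubn2 were the only members whose RefSeq promoter window (250 bases before to 50 after the TSS, 300 in all) held the cyclic AMP response element, a binding site of CREB and ATF factors, which 1.79% of all 32851 RefSeq promoter windows held. The NRF1 core was in 1 of 8 member windows and in 2.71% of all windows, and the E-box was in 1 of 8 and in 7.15%. A match is a string of letters, not a bound site.

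The mESC enhancer centres are printed for 4 of the 5 members of that set: the intronic one at Atrx, the one at the Magt1 promoter upstream of Atrx, and the 2 that overlap an EpiLC enhancer, near Daxx and near H3f3a. The labels of these last 2 name the member within 100 kb, while their nearest TSSs were those of Kifc1 and Lefty2. Each is the central 300 bases on the plus strand: chrX:105924710-105925009, chrX:106012055-106012354, chr17:33892424-33892723 and chr1:180888839-180889138. Capitals mark the CCAAT box, the extended half-site of the pluripotency factor ESRRB (TCAAGGTCA) and a KLF element (GGTGTG), on either strand.
Atrx intron enhancer: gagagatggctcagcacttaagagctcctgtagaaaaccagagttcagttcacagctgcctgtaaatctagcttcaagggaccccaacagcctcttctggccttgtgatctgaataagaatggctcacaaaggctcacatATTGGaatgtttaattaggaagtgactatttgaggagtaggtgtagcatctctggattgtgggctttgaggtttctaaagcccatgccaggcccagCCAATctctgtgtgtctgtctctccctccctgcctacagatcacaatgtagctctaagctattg
Magt1 promoter enhancer: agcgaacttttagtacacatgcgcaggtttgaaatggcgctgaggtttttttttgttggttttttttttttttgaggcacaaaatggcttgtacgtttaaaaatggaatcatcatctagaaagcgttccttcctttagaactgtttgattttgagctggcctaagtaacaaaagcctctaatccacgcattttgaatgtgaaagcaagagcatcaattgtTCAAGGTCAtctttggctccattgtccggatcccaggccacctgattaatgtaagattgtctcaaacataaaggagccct
Daxx upstream enhancer: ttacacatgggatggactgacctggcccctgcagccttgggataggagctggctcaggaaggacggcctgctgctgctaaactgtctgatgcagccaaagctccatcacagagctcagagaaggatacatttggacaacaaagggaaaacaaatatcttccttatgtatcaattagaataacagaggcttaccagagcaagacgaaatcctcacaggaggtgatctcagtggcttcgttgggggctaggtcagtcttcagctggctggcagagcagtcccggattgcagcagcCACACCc
H3f3a upstream enhancer: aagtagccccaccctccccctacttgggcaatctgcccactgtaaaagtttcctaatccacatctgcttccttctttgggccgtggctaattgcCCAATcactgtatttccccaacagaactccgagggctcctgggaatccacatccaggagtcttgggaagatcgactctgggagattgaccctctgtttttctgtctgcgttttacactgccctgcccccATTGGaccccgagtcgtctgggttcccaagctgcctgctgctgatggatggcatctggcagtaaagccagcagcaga

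The ESRRB string occurred in 1 of the 5 mESC enhancer centres near the members, at the Magt1 promoter, and in 2.66% of all mESC enhancer centres. The CCAAT box occurred in 2 of 5 and in 36% of all, and the KLF element in 2 of 5 and in 24.4% of all. The intronic Atrx centre held 0 CpG dinucleotides, those near Daxx and H3f3a 4 and 6, that near Ubn2 6 and that at Magt1 7, while all mESC centres had a median of 2.

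As a group, the 8 genes had enhancers nearby about as often as genes in general. At least 1 EpiLC enhancer lay within 100 kb of 6 of the 8 members, where 74.0% of all 24263 gene intervals kept have one. At least 1 mESC enhancer lay within 100 kb of 4 of the 8, where 55.3% of genes have one. The 2 sets divided the members into 3 kinds. H3f3a and Daxx had enhancers of both tables, H3f3b, Hira, Ubn1 and Asf1a had EpiLC enhancers and no mESC enhancer (4 of 8, against 26.1% of genes), and Ubn2 and Atrx had mESC enhancers and no EpiLC enhancer (2 of 8, against 7.36%). H3f3a and H3f3b fell in different kinds only through 1 mESC enhancer, 75.4 kb from H3f3a in the opening block of the mESC table. With a window of 50 kb, or without that block, this contrast ended: the members with an mESC enhancer fell from 4 to 2 or to 3, and H3f3a then had EpiLC enhancers alone, as H3f3b does. Ubn1 and Ubn2, and the partners Daxx and Atrx, also fell in different kinds. The kind of Ubn2 and Atrx also rests on the window. With 50 kb, Ubn2 had no enhancer of either table, and with 200 kb all 8 members had an EpiLC enhancer.

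**Figure D1:**
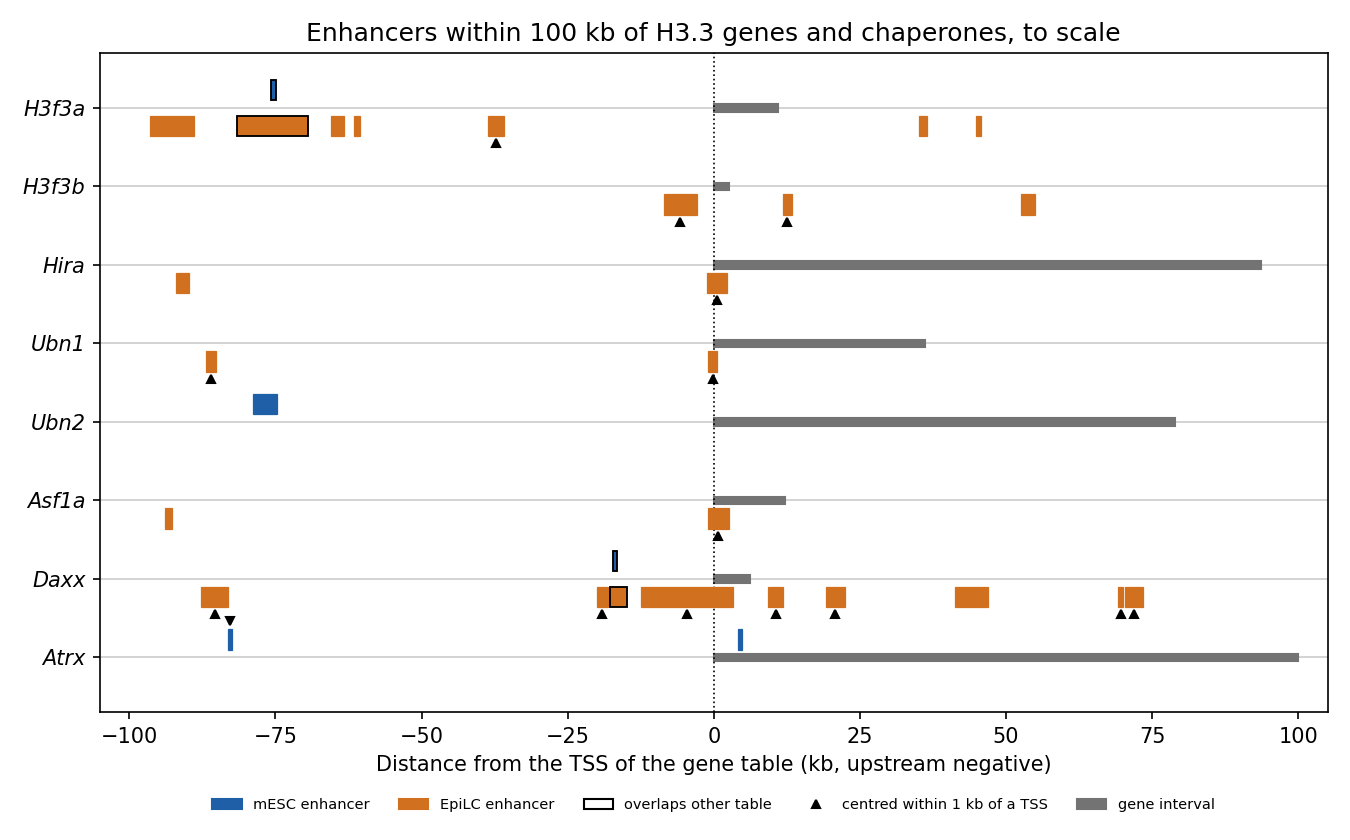
Enhancers within 100 kb of each TSS, drawn to scale, with distance from the TSS in kb along the direction of transcription (upstream negative) and 1 line per gene. Blue boxes are mESC enhancers, orange boxes are EpiLC enhancers, black outlines mark overlap with the other table, triangles mark centres within 1 kb of a TSS and grey bars are the gene intervals, ended at 100 kb. H3f3a and Daxx carry 16 of the 25 EpiLC enhancers, and Ubn2 and Atrx carry none.

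The number of EpiLC enhancers per member was 9 for Daxx, 7 for H3f3a, 3 for H3f3b, 2 each for Hira, Ubn1 and Asf1a, and 0 for Ubn2 and Atrx. Daxx and H3f3a thus held 16 of the 25, and the others 9. The number of mESC enhancers was 2 for Atrx, 1 each for H3f3a, Ubn2 and Daxx, and 0 for the other members. The median per member was 2 in EpiLCs, where the median over all genes is also 2, and 0.5 in mESCs, where it is 1. Counts at least as high as that of Daxx were found at 1.9% of all genes, as that of H3f3a at 6.28%, as that of H3f3b at 37.3%, and as those of Hira, Ubn1 and Asf1a at 53.3%. The mESC count of Atrx was equalled or passed at 23.3% of genes. Only Daxx and H3f3a therefore stood in the upper tail of EpiLC counts, while the 2-enhancer members lay at the middle of the distribution.

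**Figure D2:**
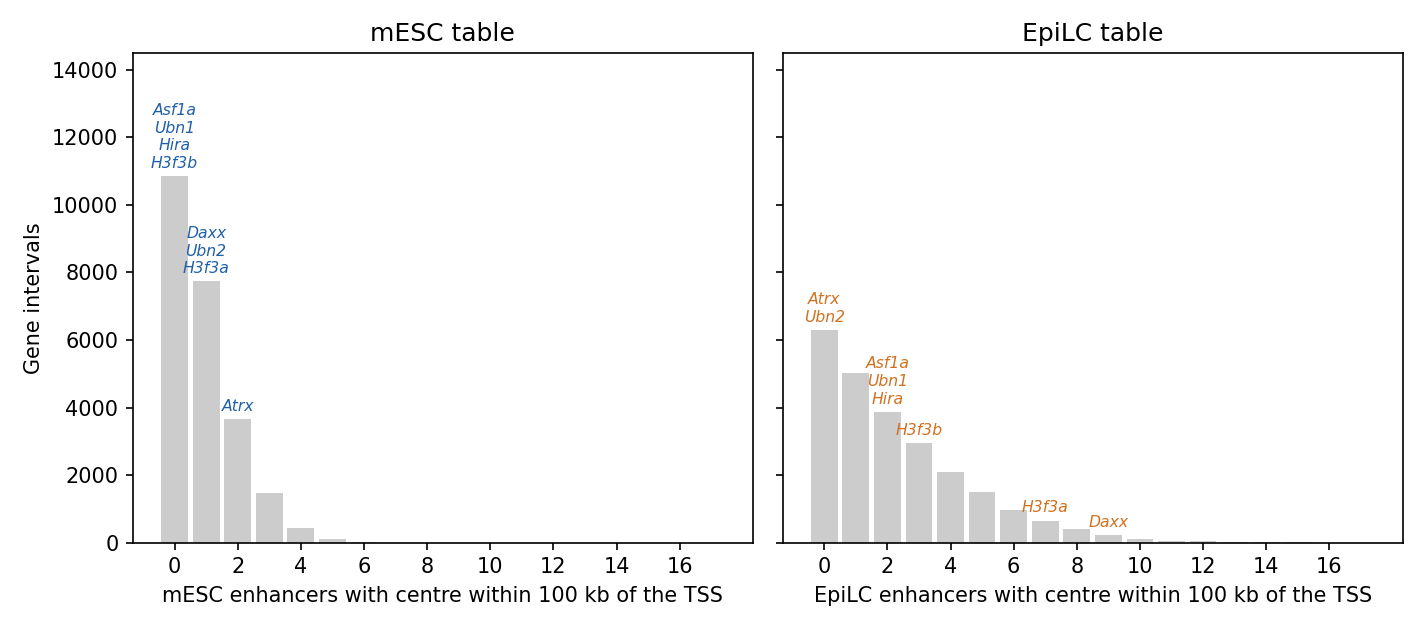
Number of gene intervals (y axis) by the number of enhancers centred within 100 kb of the TSS (x axis), for the mESC table on the left and the EpiLC table on the right, with members written above the bar they belong to. Of the members, Daxx with 9 and H3f3a with 7 lie farthest right in the EpiLC panel, and Atrx with 2 lies farthest right in the mESC panel.

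Daxx stands in a gene-dense stretch of the major histocompatibility region, with 18 other TSSs within 100 kb, a number reached by 1.59% of genes. The other members had from 2 (Asf1a) to 8 (H3f3b) such neighbours, and the median gene has 4. The part of the neighbouring genes in the Daxx count was not tested. H3f3a had 4 neighbours, so its 7 EpiLC enhancers came beside a median number of TSSs.

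Neighbouring genes, more than the members, were the nearest to these enhancers. A member had the nearest TSS for 3 of the 25 EpiLC enhancers, 1 each for H3f3a, Hira and Asf1a, and for 1 of the 5 mESC enhancers, that in Atrx. Over all pairs of a gene and an enhancer within 100 kb of it, that gene has the nearest TSS in 24.6% of EpiLC pairs and 30.8% of mESC pairs. Promoter-centred enhancers were 14 of the 25 in EpiLCs (56%), where 17.0% of the whole table are, and 1 of the 5 in mESCs, where 2.98% are. Windows around genes hold TSSs by construction, so these shares do not compare like with like. Of the 25 EpiLC enhancers, 17 covered at least 1 TSS, where 17.3% of the table do, and of the 5 mESC enhancers 0 did, where 2.97% do. The same limit holds for these shares.

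Overlap with the other table was limited to 1 pair at H3f3a and 1 pair at Daxx, all 4 intervals distal by their centres. The EpiLC interval of the H3f3a pair nonetheless covered the Lefty2 TSS. In all, 2 of the 5 mESC enhancers near members overlapped an EpiLC enhancer (40%), against 42.9% of the mESC table. Of the 25 EpiLC enhancers, 2 overlapped an mESC enhancer (8%), against 25.9% of the EpiLC table. All 14 promoter-centred EpiLC enhancers and the promoter-centred mESC enhancer lay outside the other table. Overlap among all promoter-centred enhancers was not counted, so whether this is usual is unknown. Promoter-centred enhancers made up 56% of the 25 and 17.0% of the EpiLC table, so 8% and 25.9% do not compare like with like.

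At the H3f3a locus (chr1:180802560-180813605, minus strand, 11046 bp), the enhancers lay mostly upstream and near Lefty2. Lefty2 encodes an inhibitor of Nodal signalling and is known for its expression in pluripotent cells and the early embryo. The longest was an EpiLC interval of 12100 bp (chr1:180883077-180895176) centred 75.5 kb upstream, which covered the Lefty2 TSS, and 0.748% of EpiLC enhancers are as long or longer. The mESC enhancer (chr1:180888554-180889423, 870 bp), centred 75.4 kb upstream, lay wholly inside it. Another pair of EpiLC intervals, of 1000 and 2300 bp at 61.1 and 64.4 kb upstream, also had Lefty2 as the nearest TSS. The printed centre of that mESC enhancer holds the CCAAT box on each strand.

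The other H3f3a intervals had another gene as the nearest TSS, with 1 exception. An EpiLC enhancer of 2650 bp centred 37.3 kb upstream lay at the promoter of Sde2. Downstream, an interval of 775 bp at 45.3 kb had Acbd3 as the nearest TSS of the gene table, at 42296 bp. Its centre lay in an intron of Gm38293, within 1 kb of a GENCODE start of that gene. The exception was an intergenic interval of 1500 bp (chr1:180777102-180778601) at 35.8 kb downstream of the TSS, past the 3′ end of the gene, for which H3f3a was nearest. The nearest EpiLC enhancer was thus 35.75 kb from the H3f3a TSS, and 49% of genes have one at least as close. None of the 7 GENCODE transcripts of H3f3a starts in an enhancer of either table. Starts of 1 gene can lie only a few bases apart, so they are not separate positions. The share over all GENCODE transcripts was not counted, here or for the other members.

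H3f3b (chr11:116021961-116024504, minus strand, 2544 bp) had all 3 of its EpiLC enhancers at or near other genes, and its mESC neighbourhood was empty. The nearest was an interval of 5650 bp (chr11:116027352-116033001) centred 5.7 kb upstream at the promoter of Unk, with its closer edge 2.85 kb from the table's TSS. Its others were 1625 bp at the promoter of Galk1, 12.6 kb downstream, and 2400 bp nearest to Itgb4, 53.7 kb downstream. One of the 4 GENCODE transcripts of H3f3b starts 3458 bp upstream of the table's TSS, inside the interval at Unk. Which start is used in these cells was not tested. The nearest mESC enhancer was 362.7 kb away, and 89.3% of genes have one at least as close, the farthest position among the 8 members.

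The HIRA complex genes Hira and Ubn1 each had an EpiLC enhancer on their promoter and another near the edge of the 100 kb window. Hira (chr16:18876750-18970308, plus strand, 93559 bp) encodes the WD-repeat scaffold of the complex. The interval over its TSS (chr16:18875627-18879001, 3375 bp) was centred 0.6 kb downstream and also covered the TSS of Mrpl40, a mitochondrial ribosomal protein gene. Its other interval, of 2250 bp at 90.9 kb upstream, lay in an intron of Cdc45 and nearest to the TSS of Cldn5. The nearest mESC enhancer to Hira was 160.93 kb away.

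Ubn1 (chr16:5050068-5086285, plus strand, 36218 bp) also had an EpiLC enhancer over its TSS and another far upstream, both promoter-centred, whereas the far one at Hira was distal. An EpiLC interval of 1625 bp (chr16:5049052-5050676) was centred 0.2 kb upstream and covered the TSSs of Ubn1 and of Glyr1, with Glyr1 the nearer at 46 bp. The printed upstream sequence of Ubn1 lies inside this interval, with its response element and both E-boxes. The other EpiLC interval, of 1800 bp, was at the promoter of Anks3, 86.0 kb upstream. The nearest mESC enhancer was 202.45 kb away, and 76.4% of genes have one as close or closer.

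Ubn2 (chr6:38433925-38512763, plus strand, 78839 bp) had neither kind of EpiLC enhancer seen at its paralog within 100 kb. Its single interval was an mESC enhancer of 4181 bp (chr6:38354989-38359169) centred 76.8 kb upstream, 2476 bp from the TSS of Zc3hav1, a gene of antiviral defence, and it overlapped no EpiLC enhancer. Just past the window limit, an mESC enhancer at 100.3 kb and an EpiLC enhancer at 100.5 kb upstream shared 398 bp. The count of 0 EpiLC enhancers at Ubn2 therefore rests on where the window ends. For 74.1% of genes the nearest EpiLC enhancer was as close or closer than for Ubn2.

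Asf1a (chr10:53596961-53609215, plus strand, 12255 bp) resembled Hira and Ubn1 in having an EpiLC enhancer at its own promoter. That interval (chr10:53596002-53599451, 3450 bp) was centred 0.8 kb downstream and held the starts of 5 of the 6 GENCODE transcripts of Asf1a. A GENCODE start of Mcm9, which encodes a helicase of DNA repair, lay within 1 kb of its centre. The other EpiLC interval, of 1225 bp, was 93.3 kb upstream, nearest to Gm20597. No mESC enhancer was closer than 183.88 kb.

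Hira, Ubn1 and Asf1a had the same pair of counts, 0 in mESCs and 2 in EpiLCs, which they shared with 6.35% of genes. The counts of Daxx were shared by 0.28% and those of H3f3a by 0.841%. In all, 3 of the 8 members had an EpiLC enhancer centred within 1 kb of their own TSS, against 13.1% of genes, and 0 of 8 had such an mESC enhancer, against 1.14%. With Daxx, the TSS of 4 of 8 members lay inside an EpiLC enhancer, against 14.0% of genes. For mESC enhancers this was 0 of 8, against 1.16% of genes.

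Daxx (chr17:33909445-33915590, plus strand, 6146 bp) had the most EpiLC enhancers of the 8, 7 of them promoter-centred and 2 distal. Its TSS lay inside an interval of 15775 bp (chr17:33896977-33912751), the longest near any member, and 0.368% of EpiLC enhancers are that long. This interval also covered the TSSs of BC051226 and Platr17, and 9 of the 10 GENCODE transcripts of Daxx start in it. Its centre lay 4.6 kb upstream of Daxx, so the interval counts as one at the Platr17 promoter and not at that of Daxx.

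The other Daxx intervals had neighbouring genes as the nearest TSS. Upstream, 4575 bp at 85.4 kb covered Rps28 and Ndufa7, and intervals of 1925 bp at 19.1 kb and 2800 bp at 16.3 kb were nearest to Kifc1, a kinesin gene. The mESC enhancer (chr17:33892217-33892930, 714 bp) at 16.9 kb upstream lay inside the 2800 bp interval and 1940 bp from the TSS of Kifc1. Downstream, intervals lay nearest to Tapbp at 10.6 kb, Rgl2 at 20.8 kb, B3galt4 at 44.1 kb, H2-K2 at 69.6 kb and AA388235 at 71.9 kb. Tapbp is a gene of antigen presentation, and Rps28, like Rps18 within the B3galt4 interval, encodes a ribosomal protein.

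Atrx (chrX:105797615-105929372, minus strand, 131758 bp) was the only member with an mESC enhancer inside its own gene. That interval (chrX:105924579-105925140, 562 bp) was centred 4.5 kb downstream of the TSS, in intron 1 of the RefSeq transcript with 35 exons, an intron of 29106 bp. It was closer than the nearest mESC enhancer of most genes, since 4.97% of genes have one within that distance. The other mESC interval, of 585 bp (chrX:106011912-106012496), was 82.8 kb upstream and 305 bp from the TSS of Magt1, a magnesium transporter gene. No EpiLC enhancer was closer than 151.69 kb, and 82.8% of genes have one as close or closer. Neither mESC interval overlapped an EpiLC enhancer, and none of the 27 GENCODE transcripts of Atrx starts in an enhancer of either table.

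Among the 5 mESC intervals, that in the Atrx intron also stood apart in its repeat content. Of its bases, 55% are soft-masked as repeats in the reference genome, a share reached by 4.23% of mESC enhancers, whose median is 17.6%. The corresponding shares were 35.5% for the Ubn2 interval, 21.4% for that at Magt1, 3.22% for that at Daxx and 2.41% for that at H3f3a. The 2 mESC enhancers that overlapped an EpiLC enhancer thus had the lowest repeat shares of the 5. The EpiLC intervals around them had higher shares, 57.6% at Daxx and 24.9% at H3f3a, where the median EpiLC enhancer has 19.7%. Whether reads in the Atrx interval can be placed uniquely was not tested.

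**Figure D3:**
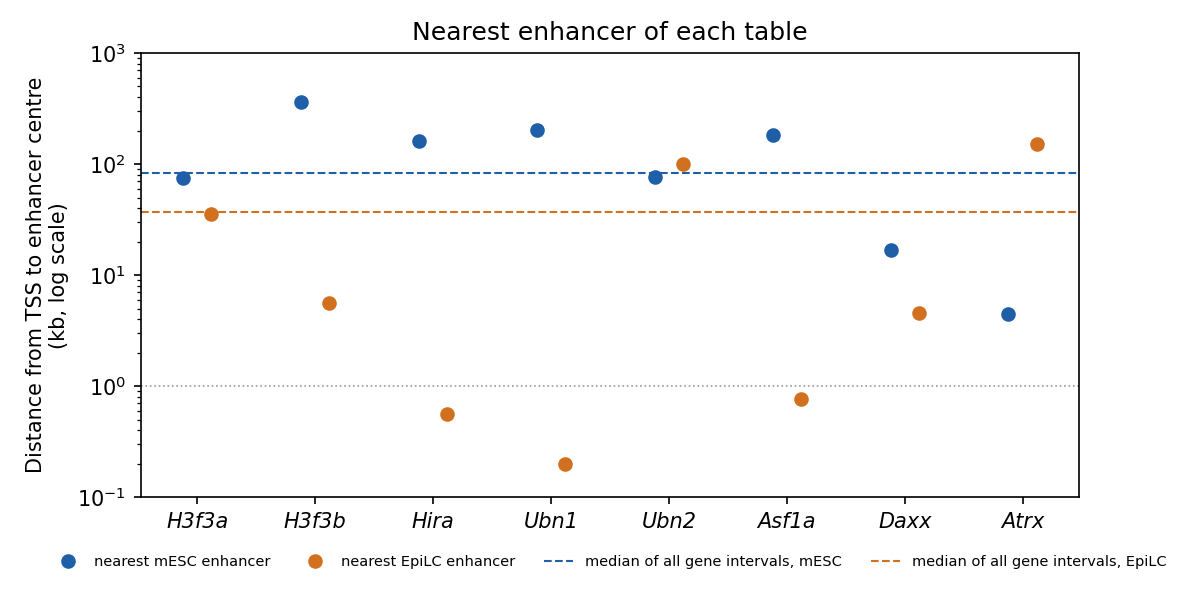
Distance in kb, on a log axis, from each member's TSS to the nearest mESC enhancer (blue) and nearest EpiLC enhancer (orange), with the median over all genes of 83.6 kb for mESCs and 37.2 kb for EpiLCs as lines. Hira, Ubn1 and Asf1a lie below 1 kb for EpiLCs and at 160.93 kb or more for mESCs, and Atrx lies the opposite way at 4.51 kb for mESCs and 151.69 kb for EpiLCs.

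Across the members, distances to the nearest enhancer of the 2 tables ran in different orders. For EpiLCs the order was Ubn1 (0.2 kb), Hira (0.56), Asf1a (0.76), Daxx (4.58), H3f3b (5.67), H3f3a (35.75), Ubn2 (100.55) and Atrx (151.69). For mESCs it was Atrx (4.51 kb), Daxx (16.87), H3f3a (75.38), Ubn2 (76.85), Hira (160.93), Asf1a (183.88), Ubn1 (202.45) and H3f3b (362.7). Daxx and H3f3a were the only members closer than the median gene in both tables, and for H3f3a the margin was small (medians of 37.2 kb for EpiLCs and 83.6 kb for mESCs). The intervals themselves were long in EpiLCs, with a median of 2575 bp near the members and 1750 bp in the table. In mESCs the median was 714 bp near the members and 711 bp in the table.

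The EpiLC intervals near members were longer than the table's median in both classes. Promoter-centred ones had a median of 2825 bp against 1975 bp for all promoter-centred EpiLC enhancers, and distal ones 2300 bp against 1700 bp. At their centres, 12 of the 25 were intergenic (43.7% of the EpiLC table), 6 lay in introns (44.2%), 3 in coding exons (2.57%), 3 in non-coding exons (4.28%) and 1 in an untranslated exon (5.24%). Promoter-centred enhancers made up more of the 25 than of the EpiLC table, so these shares do not compare like with like. Of the 5 mESC centres, 4 were intergenic (44.7% of the mESC table) and 1 was the Atrx intron (50.1% of the table lie in introns).

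The promoters of most members are rich in CpG dinucleotides, the feature of promoters that are broadly active. The RefSeq windows of the 8 members held from 11 (Atrx) to 39 (H3f3a) CpGs, with a median of 31, while all windows had a median of 7. Between these lay H3f3b and Ubn2 with 24 each, Hira and Asf1a with 31 each, Daxx with 33 and Ubn1 with 36. As many CpGs or more were found in 4.45% of windows for H3f3a and in 41.4% for Atrx. The G and C content ran from 50.3% in Atrx to 74% in H3f3a, against a median of 52.7%.

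**Figure D4:**
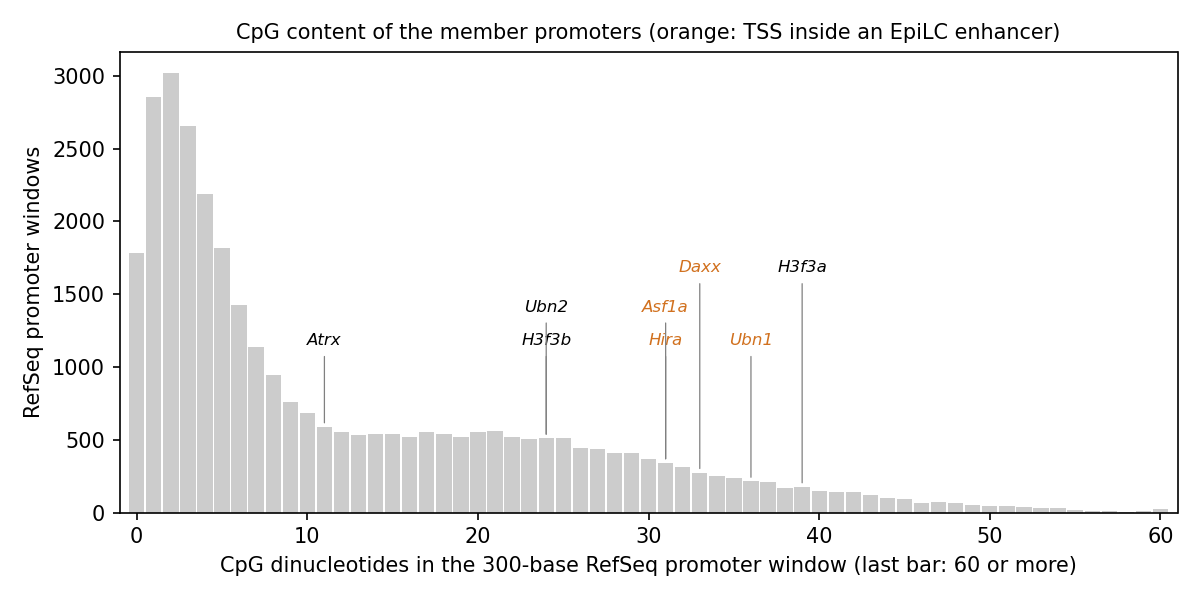
Histogram of CpG dinucleotides per 300-base RefSeq promoter window (x axis, last bar 60 or more) over 32851 windows (y axis), with members marked at their counts and those whose TSS lies inside an EpiLC enhancer in orange. The 4 orange members hold 31 to 36 CpGs, and H3f3a, in black, holds 39.

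Coverage by EpiLC enhancers was more frequent at higher CpG content over the 15613 RefSeq windows whose TSS equals one of the gene table, among them 7 of the 8 members. Ubn1, whose RefSeq TSS is not that of the table, was placed by the CpGs of its own window. The TSS lay inside one for 2.45% of windows with 0 to 4 CpGs, 12.4% with 5 to 13, 21.6% with 14 to 24 and 23.3% with 25 to 65. Of the members, 5 fell in the highest of these classes (4 of them covered), 2 in the class of 14 to 24, H3f3b and Ubn2 (neither covered), and 1 in the class of 5 to 13, Atrx (not covered). The part of CpG content in the members' coverage was not tested. H3f3a had the most CpGs of the 8 and no cover.

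The promoter windows of the members also shared short strings. The CCAAT box, bound by NF-Y, was in 6 of 8 windows and in 37.4% of all, with 4 matches each in H3f3b and Atrx. The GC box, bound by SP factors, was in 5 of 8 and in 35.7% of all, with 6 matches in H3f3a. The member windows had a median G and C content of 68.5%, against 52.7% for all. The part of this composition in the GC box counts was not tested. H3f3b, the shorter H3.3 gene, was the only member with a TATA box (TATAAA, 13.6% of all windows) and the only one with the octamer (ATTTGCAT, 1.74%), a site of OCT factors known from histone promoters. Daxx alone had the ETS site (CCGGAAGT, 3.89%) and Ubn1 alone the YY1 site (AAGATGGCG, 1.4%). In the central 300 bases of the 25 EpiLC enhancers, the CCAAT box was in 12 (30% of the table), the GC box in 8 (18.1%) and the E-box in 3 (4.75%). These centres had a median G and C content of 54%, against 49% in the table. Promoter-centred enhancers were 56% of the 25 and 17.0% of the table, so shares of the 25 and of the table do not compare like with like. The KLF element was in 5 (20.2% of the table), the TATA box in 4 (13.2%), and the cyclic AMP response element (0.446%), the ETS site (1.33%) and the YY1 site (4.66%) in 1 each. The octamer (3.37%), the ESRRB half-site (1.09%) and the NRF1 core (1.14%) were in 0.

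Related genes were counted the same way, from lists put together with results of these data known. Of 10 other genes tied to H3.3, among them the HIRA subunit gene Cabin1 and genes for silencing factors that act with H3.3, 6 had an mESC enhancer within 100 kb and 9 an EpiLC enhancer, with medians of 1.5 and 5. Of 9 genes for deposition of canonical H3, such as the CAF-1 subunit genes Chaf1a and Chaf1b, 7 and 9 had one, with medians of 2 and 3. All 10 listed genes of Polycomb repressive complex 2, which methylates lysine 27, had both, with medians of 2 and 4. Over all genes, 55.3% have an mESC enhancer within 100 kb and 74.0% an EpiLC enhancer. The 8 H3.3 genes and chaperones thus had the lowest median of the 4 lists in each table, at 0.5 and 2, beside 1 and 2 over all genes. No test of these differences was made.

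The genes with most enhancers in the related lists were led by Trim28, Chaf1b and Jarid2. Trim28, a corepressor that silences retroelements, had 1 mESC and 11 EpiLC enhancers, and it was followed by the remodeller gene Chd2 (2 and 7), by Cabin1 (2 and 6) and by Hirip3 (0 and 7). Chaf1b had 2 and 7, Tonsl 0 and 8, Chaf1a 0 and 7, and Rbbp7 2 and 5. The windows of Chaf1b (TSS at chr16:93883901) and of Morc3 in the H3.3-related list (chr16:93832121) overlap, so an enhancer can count in both lists. Jarid2, an accessory subunit of Polycomb repressive complex 2, had 4 and 13, Epop 3 and 8, Ezh1 2 and 6, and Aebp2 2 and 5. An EpiLC enhancer was centred at the own promoter of 5 of the 10 Polycomb genes and 3 of the 9 canonical H3 deposition genes. The same held for 0 of the 10 other H3.3-related genes and 3 of the 8 members, against 13.1% of all genes. An EpiLC enhancer covered the TSS of 6, 3, 3 and 4 genes of these lists, in the same order, against 14.0% of all genes.

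**Figure D5:**
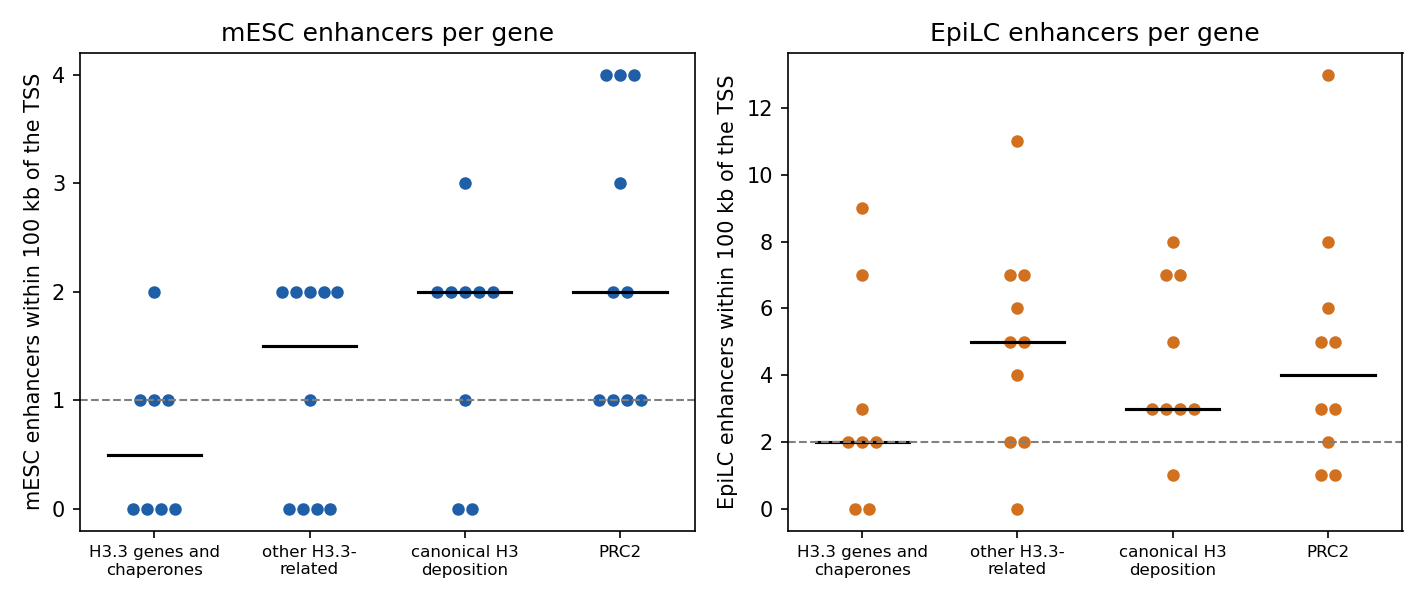
Number of enhancers centred within 100 kb of the TSS (y axis) for each gene of 4 lists (points), for mESCs on the left and EpiLCs on the right, with the list's median as a black line and the median over all genes (1 and 2) as a dashed line. The H3.3 genes and chaperones run from 0 to 2 in mESCs and from 0 to 9 in EpiLCs.

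The limit of 100 kb falls close to several enhancers. Among those just inside were the EpiLC intervals at 93.3 kb from Asf1a and 90.9 kb from Hira, and the EpiLC count of 7 at H3f3a also includes 1 close to the limit. Between 100 and 110 kb lay 5 more, the pair at Ubn2 already described, 1 EpiLC interval at 102.9 kb from Daxx and EpiLC intervals at 102.9 and 107.1 kb from Hira. In the gene table Ubn2 also lies within another interval of 70.3 Mb, and Atrx within 6 that exceed 1 Mb, the longest of 149.2 Mb. Leaving out such long intervals changed no count of promoter-centred or nearest enhancers by over 1.5 times.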

How the data were processed

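The study made chromatin immunoprecipitation libraries of mESCs and EpiLCs. Builds mm10 and dm6 and the tools bedtools 2.29.2, Bowtie2 2.3.4.1 and Trimmomatic 0.38 are listed, without roles, in the submitters' processing notes. The files the authors deposited hold region coordinates (chromosome, start, end, strand), with no gene names, no value per library and 0 columns of samples from elsewhere. Per the series' design text, the authors lifted both published enhancer sets to mm10.

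Gene intervals were named by matching GENCODE M21 and RefSeq (GRCm38.p6, the same build as mm10). An interval without an exact match took the gene on its strand sharing at least 0.8 of the joint length. Of 24402 intervals, 24263 were kept after 120 duplicates and those on scaffolds or past chromosome ends were removed, and 23840 have a name. The gene table counts starts from 0. For the enhancer tables this was assumed, and their starts may be off by 1 bp. Overlap means at least 1 bp. Percentages over all genes or the whole enhancer table stand beside most counts, but not beside those of GENCODE starts or of promoter-centred overlap. Promoter windows are RefSeq's, and other sequences were read from the RefSeq genome of GRCm38.p6. All 8 members matched a promoter window.

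All members are named, and for each related list the 4 genes with most enhancers over both tables, ties resolved by name. The members and lists were chosen with earlier results of these data known. Counting was tested on simulated regions. Python 3.11.15, pandas 2.3.3, numpy 2.4.6 and matplotlib 3.10.9 were used. The alternatives were other windows, edges in place of centres, other promoter distances, overlap rules and TSS sources, the mESC table without its opening block of entries, and no intervals over 1 Mb. One interval near H3f3a is not described singly here.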

Additional observations from a re-analysis of the deposited data

How the results depend on the processing

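Over 10 alternatives, 42 of 58 recomputed counts stayed within 1.5 times the reported one and 16 did not. With a window of 50 kb, 2 mESC and 14 EpiLC enhancers remained near the members, 2 members had an mESC enhancer, 0 mESC enhancers were promoter-centred, and 1 mESC and 1 EpiLC enhancer overlapped the other table. With 200 kb there were 12 mESC and 52 EpiLC enhancers, of which 5 and 6 overlapped the other table. All 8 members then had an EpiLC enhancer, and 6 had an mESC enhancer. Measured from the nearest edge, 2 mESC enhancers were promoter-centred and 5 EpiLC enhancers had a member as the nearest TSS. A promoter distance of 2 kb gave 2 promoter-centred mESC enhancers, and so did RefSeq 5′ ends. Without the opening block of the mESC table, which includes the enhancer near H3f3a, 1 mESC and 1 EpiLC enhancer overlapped the other table. These counts are small, so a change of 1 enhancer can pass the limit of 1.5 times. No paired analysis was possible because the tables hold no value per library.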

Other observations

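Beyond the window, 7 mESC and 27 EpiLC enhancers were centred between 100 and 200 kb from a member's TSS, of which 3 and 4 overlapped the other table. Hira, with 2 EpiLC enhancers inside 100 kb, had 8 in this outer range and 2 mESC enhancers. H3f3a had 6 EpiLC and 1 mESC enhancers there, H3f3b 5 EpiLC, and Ubn2 3 EpiLC and 2 mESC. Atrx had 1 of each, Asf1a 1 mESC, Daxx 3 EpiLC and Ubn1 1 EpiLC. Of the 27 EpiLC enhancers in this range 7 were promoter-centred, and of the 7 mESC enhancers 0 were.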
